A study of Homo sapiens with 6 samples.

Results

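The transcripts described are 6 long RNAs from which microRNAs of myeloid cells are cut: MIR223HG, MIR22HG, MIR155HG, MIR17HG, MIR4435-2HG and DLEU2. They were taken by matching the Ensembl IDs of the count table to these symbols, and each of the 6 matched 1 of the 61806 rows. The members were chosen by their counts in these same libraries, with the difference between ethacrynic acid and DMSO in view, so their own levels and fold changes are a description with no p-value, and counts of members past a threshold support nothing. RNA came from U937, an established human line with monocyte features (AML in the labels), grown in RPMI medium with fetal calf serum. There were 3 libraries of cells given ethacrynic acid and 3 of cells given DMSO, the vehicle. The drug, a loop diuretic, reacts with thiols, and the comparison belongs to a study of compounds that drive myeloid differentiation. Titles place the libraries of both groups at day 3, the treatment note speaks of 2 days with the drug, and the labels used here give no dose. U937 is a single line, and nothing in the labels says that replicates were separate cultures, so p-values cover only differences among these libraries and may reflect technical variation.

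A microRNA host gene is transcribed as a long primary RNA. DROSHA with DGCR8 cuts a hairpin out of it in the nucleus, XPO5 exports the hairpin, DICER1 trims it to a duplex, and an Argonaute such as AGO2 carries 1 strand to matching sites in messenger RNAs, mostly in 3′ UTRs. Bases 2 to 8 of the mature strand, the seed, do most of the pairing. miR-223 is a hallmark of the myeloid lineage and is activated by C/EBP factors, miR-155 is induced in activated macrophages and lymphocytes, and miR-22 has been studied as a microRNA of monocytic differentiation and of leukaemia. The miR-17-92 cluster is a direct target of MYC and promotes proliferation, whereas miR-15a and miR-16, encoded within DLEU2, restrain BCL2 and cyclins and are lost in chronic lymphocytic leukaemia. MIR4435-2HG is better known as a long RNA in its own right, and its mouse counterpart Morrbid represses the death gene Bcl2l11 in short-lived myeloid cells.

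The mature strands were read from RefSeq (GRCh38.p14) for all 6 hosts and are shown because their seeds define which messenger RNAs the hosts could act on. They are written 5′ to 3′ with the seed in capitals. The first 3 hosts encode 1 hairpin each, with a seed that no other member shares.
hsa-miR-223-3p (MIR223HG): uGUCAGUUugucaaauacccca
hsa-miR-22-3p (MIR22HG): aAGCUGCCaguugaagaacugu
hsa-miR-155-5p (MIR155HG): uUAAUGCUaaucgugauagggguu
MIR17HG encodes 6 hairpins. For each hairpin examined 1 strand, the one usually named as the main product, is shown and used below. A further hairpin annotated within DLEU2 on the same strand, MIR3613, was not examined. The 6 strands of MIR17HG fall into 4 seed groups. The strands miR-17-5p and miR-20a-5p share a seed, and so do miR-19a-3p and miR-19b-3p, while miR-18a-5p and miR-92a-3p each have a seed of their own.
hsa-miR-17-5p (MIR17HG): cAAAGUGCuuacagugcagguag
hsa-miR-20a-5p (MIR17HG): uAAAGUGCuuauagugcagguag
hsa-miR-18a-5p (MIR17HG): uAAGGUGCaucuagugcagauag
hsa-miR-19a-3p (MIR17HG): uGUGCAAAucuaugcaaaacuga
hsa-miR-19b-3p (MIR17HG): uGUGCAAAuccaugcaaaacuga
hsa-miR-92a-3p (MIR17HG): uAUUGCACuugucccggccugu
The strands miR-15a-5p and miR-16-5p of DLEU2 share a seed, and miR-4435 of MIR4435-2HG stands alone.
hsa-miR-15a-5p (DLEU2): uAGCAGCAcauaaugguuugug
hsa-miR-16-5p (DLEU2): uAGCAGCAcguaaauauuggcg
hsa-miR-4435 (MIR4435-2HG): aUGGCCAGagcucacacagagg

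The hosts differ in how they hold their hairpins (GENCODE 29 on GRCh38, coordinates counted from 1). MIR223HG (ENSG00000274536, listed in that release as AL034397.3) lies at chrX:66015461-66020422 on the plus strand, and its hairpin is exonic in both of its 2 transcripts. MIR22HG (ENSG00000186594) lies at chr17:1711493-1717174 on the minus strand, with the hairpin exonic in all 19 transcripts. MIR155HG (ENSG00000234883) lies at chr21:25561909-25575168 on the plus strand, with the hairpin in an exon of its 1 transcript. MIR17HG (ENSG00000215417) lies at chr13:91347820-91354579 on the plus strand, and its hairpins are exonic in 2 and intronic in 1 of 3 transcripts. MIR4435-2HG (ENSG00000172965) spans 486601 bases at chr2:111036776-111523376 on the minus strand, and its hairpin is intronic in 12 of 25 transcripts and exonic in 0. DLEU2 (ENSG00000231607) spans 143169 bases at chr13:49982552-50125720 on the minus strand, with the hairpins of miR-15a and miR-16-1 intronic in 6 of 8 transcripts. Counts on exons therefore cover the hairpin region itself in 4 hosts, and in MIR4435-2HG and DLEU2 they come almost wholly from exons elsewhere.

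Mature microRNAs were not measured by these libraries. The table holds 12 separate rows for the hairpins examined in the 6 hosts, and none of these rows had more than 1 count in any library. Every level below is therefore one of host transcript.

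Libraries held 57516146 to 66677543 counts with ethacrynic acid and 66907158 to 68128543 counts with DMSO. The groups did not overlap in depth (exact two-sided permutation test p = 0.1, the smallest that 3 against 3 allows). Levels are given as CPM, counts per 1e+06 after TMM scaling. Of the 61806 rows, 19611 passed the filter on low counts, all 6 members among them. On the first principal component, ethacrynic acid replicate 3 lay at 93.9 and the other libraries between -36.9 and -10.4. It also held 309 CPM of the summed epithelial markers EPCAM, KRT8 and KRT19, against 28.6 and 31.4 CPM in the other ethacrynic acid libraries and 19.5 to 34.8 CPM in DMSO libraries. The 8 monocytic markers, all of them detected, summed to 892 to 1340 CPM with ethacrynic acid and 560 to 721 CPM with DMSO, and more than any other marker LYZ made up that sum (502 to 884 CPM with ethacrynic acid, 149 to 302 CPM with DMSO). They did not move one way: 5 had a positive and 3 a negative log2 fold change (median 0.19). Without overlap 4 were higher and 1 lower (8.64% and 8.99% over all genes tested). edgeR called none, with 5 at an unadjusted p under 0.05, and DESeq2 called 3. Over all genes tested 11.1% had such a p and DESeq2 called 3.13%.

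Each of the 6 host transcripts had a higher mean with ethacrynic acid, and 2 of them, MIR22HG and MIR223HG, more than doubled. The median log2 fold change over the 6 was 0.45, against -0.00 over all genes tested. In 4 of the 6, namely MIR223HG, MIR22HG, MIR4435-2HG and DLEU2, every ethacrynic acid library lay above every DMSO library, an arrangement found in 8.64% of all genes tested. At an adjusted p under 0.05 in edgeR 1 member, MIR223HG, counted among the genes called, where 0.265% of all genes tested were called in either direction, 0.229% as higher and 0.0357% as lower. DESeq2 at the same threshold counted 3 members, MIR223HG, MIR22HG and MIR4435-2HG, where it called 3.13% of the genes, 2.05% as higher and 1.08% as lower. Because the members were picked for this contrast, these shares are background and nothing is read from them. In bulk RNA such as this, more cells of a type and more RNA per cell cannot be told apart.

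**Figure D1:**
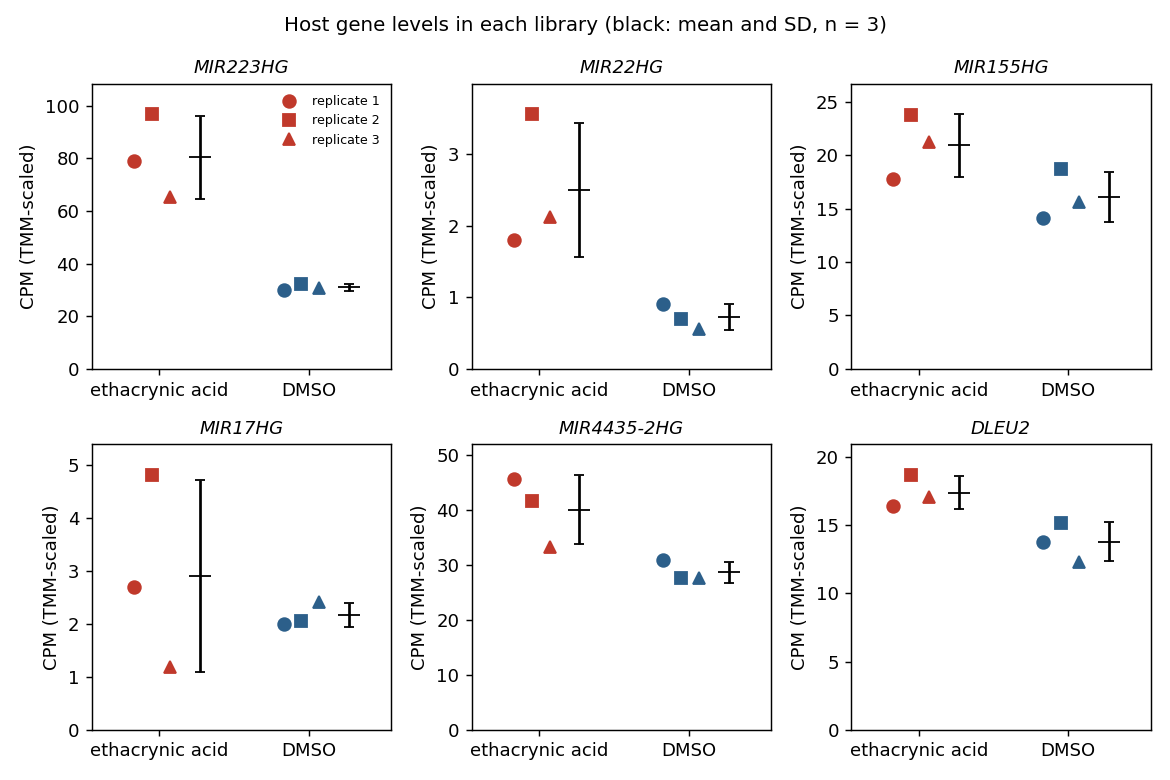
Level of each host transcript in every library, in CPM (counts per 1e+06, TMM-scaled; each panel has its own linear axis from 0), with ethacrynic acid in red and DMSO in blue, symbols for replicates 1 to 3, and black bars for the mean and SD (n = 3). MIR223HG, MIR22HG, MIR4435-2HG and DLEU2 show no overlap between the groups, MIR155HG shows a small one, and MIR17HG spreads from 1.18 to 4.81 CPM among ethacrynic acid libraries.

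MIR223HG, host of the myeloid miR-223, had the highest level of the members, also per kilobase of exon. It had 79.0, 96.8 and 65.2 CPM in ethacrynic acid replicates 1, 2 and 3, against 30.1, 32.4 and 30.7 CPM in DMSO replicates 1, 2 and 3. The DMSO libraries were tightly grouped and the ethacrynic acid libraries spread widely, all above them. Means were 80.4 ± 15.8 CPM with ethacrynic acid and 31.0 ± 1.22 CPM with DMSO (SD, n = 3 each), a 2.59-fold difference, and the log2 fold change was 1.37 ± 0.15 (SE). Of the genes tested, 3.73% had a larger log2 fold change. Behind these values stood 4198 to 5440 counts per ethacrynic acid library and 2043 to 2238 per DMSO library. Among the ethacrynic acid libraries replicate 2 was highest and replicate 3 lowest. That was also the order of LYZ (884, 582 and 502 CPM in replicates 2, 1 and 3), ITGAM, CSF1R and CD14. It was not that of CD68 (154, 177 and 115 CPM in replicates 2, 1 and 3), PTPRC (168, 113 and 160 CPM), CD33 or MPO. LYZ, the secreted lysozyme of monocytes, had 656 ± 202 CPM with ethacrynic acid and 211 ± 80.8 CPM with DMSO, and CD68, a lysosomal protein of macrophages, had 149 ± 31.5 CPM with ethacrynic acid and 72.7 ± 3.76 CPM with DMSO (SD, n = 3 each). Other monocytic markers differed the other way: PTPRC, the leukocyte antigen CD45, had 147 ± 29.4 CPM with ethacrynic acid and 208 ± 22.7 CPM with DMSO, and MPO and CD33 had log2 fold changes of -0.41 ± 0.25 and -0.08 ± 0.09 (SE). CD14 and ITGAM had 2.01 ± 0.46 and 0.33 ± 0.12, and CSF1R 0.05 ± 0.51 (SE). The part of these markers in the MIR223HG difference was not tested.

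MIR22HG had the largest fold change of the members and, per kilobase of exon too, the lowest level with DMSO. It had 1.80, 3.56 and 2.13 CPM in ethacrynic acid replicates 1, 2 and 3, against 0.912, 0.695 and 0.557 CPM in DMSO replicates 1, 2 and 3. Every ethacrynic acid library was above every DMSO library, and replicate 2 stood well above the other ethacrynic acid libraries. The means, 2.50 ± 0.935 CPM with ethacrynic acid and 0.722 ± 0.179 CPM with DMSO (SD, n = 3 each), differed 3.45-fold, a log2 fold change of 1.79 ± 0.36 (SE). The libraries held 110 to 200 counts of it with ethacrynic acid and 40 to 62 with DMSO, so counting error is larger here than for MIR223HG. Without ethacrynic acid replicate 2 the log2 fold change was 1.44.

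MIR4435-2HG had 45.6, 41.6 and 33.2 CPM in ethacrynic acid replicates 1, 2 and 3, against 30.9, 27.6 and 27.7 CPM in DMSO replicates 1, 2 and 3. The groups did not overlap, although ethacrynic acid replicate 3 was close to DMSO replicate 1. The means were 40.1 ± 6.31 CPM with ethacrynic acid and 28.7 ± 1.91 CPM with DMSO (SD, n = 3 each), 1.40-fold apart, with a log2 fold change of 0.48 ± 0.14 (SE). It was the single member whose highest ethacrynic acid library was replicate 1. In the other 5 it was replicate 2, the shallowest library and the one with most LYZ.

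MIR155HG, also called BIC, had 17.8, 23.7 and 21.2 CPM in ethacrynic acid replicates 1, 2 and 3, against 14.1, 18.7 and 15.6 CPM in DMSO replicates 1, 2 and 3. The lowest ethacrynic acid library lay below the highest DMSO library, so the groups overlapped. Means of 20.9 ± 2.92 CPM with ethacrynic acid and 16.1 ± 2.35 CPM with DMSO (SD, n = 3 each) gave a 1.3-fold difference and a log2 fold change of 0.37 ± 0.16 (SE).

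DLEU2, host of miR-15a and miR-16-1, had 16.4, 18.7 and 17.1 CPM in ethacrynic acid replicates 1, 2 and 3, against 13.8, 15.2 and 12.3 CPM in DMSO replicates 1, 2 and 3. The groups were separate by a narrow gap, and they overlapped when libraries were scaled to total counts alone, which left 3 members without overlap, where 6.31% of all genes tested were then higher without overlap. Its means of 17.4 ± 1.19 CPM with ethacrynic acid and 13.8 ± 1.44 CPM with DMSO (SD, n = 3 each) were 1.26-fold apart, a log2 fold change of 0.34 ± 0.13 (SE), the smallest of the members.

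MIR17HG, the MYC-driven host of miR-17-92, had a log2 fold change whose sign depended on 1 library. It had 2.70, 4.81 and 1.18 CPM in ethacrynic acid replicates 1, 2 and 3, against 2.00, 2.06 and 2.42 CPM in DMSO replicates 1, 2 and 3. Ethacrynic acid replicates 2 and 3 held the highest and the lowest value of all 6 libraries, on either side of the DMSO group. The means were 2.90 ± 1.82 CPM with ethacrynic acid and 2.16 ± 0.230 CPM with DMSO (SD, n = 3 each), and the log2 fold change was 0.42 ± 0.45 (SE). It became -0.16 without ethacrynic acid replicate 2 and 0.79 without ethacrynic acid replicate 3, the library with the high epithelial markers. The part of those markers in its low value was not tested.

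The spread between libraries was wider with ethacrynic acid in 4 members. The coefficient of variation of MIR17HG was 62.8% with ethacrynic acid and 10.7% with DMSO, and that of MIR22HG was 37.4% with ethacrynic acid and 24.8% with DMSO. For MIR223HG it was 19.7% with ethacrynic acid and 3.93% with DMSO, and for MIR4435-2HG 15.7% with ethacrynic acid and 6.64% with DMSO. In MIR155HG it was 14% with ethacrynic acid and 14.6% with DMSO, and in DLEU2 it was 6.87% with ethacrynic acid and 10.5% with DMSO.

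Per kilobase of annotated exon, which allows levels to be set beside each other between genes, MIR223HG led with 44.3 ± 8.72 CPM per kb in ethacrynic acid libraries and 17.1 ± 0.673 CPM per kb in DMSO libraries (SD, n = 3 each). MIR155HG, with its short exons, came second at 13.1 ± 1.82 CPM per kb with ethacrynic acid and 10.1 ± 1.47 CPM per kb with DMSO. DLEU2 had 3.41 ± 0.234 CPM per kb with ethacrynic acid and 2.70 ± 0.283 CPM per kb with DMSO. MIR4435-2HG had 3.07 ± 0.482 CPM per kb with ethacrynic acid, within its SD of DLEU2 in that group, and 2.20 ± 0.146 CPM per kb with DMSO. The lowest were MIR22HG at 0.836 ± 0.313 CPM per kb with ethacrynic acid and 0.242 ± 0.0599 CPM per kb with DMSO, and MIR17HG at 0.829 ± 0.521 CPM per kb with ethacrynic acid and 0.619 ± 0.066 CPM per kb with DMSO. With ethacrynic acid these last levels lay within each other's spread, while with DMSO MIR22HG was the lower. The exon length used is that of all annotated transcripts together, so a gene with many exons that these cells skip has a level per kb that is too low.

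**Figure D2:**
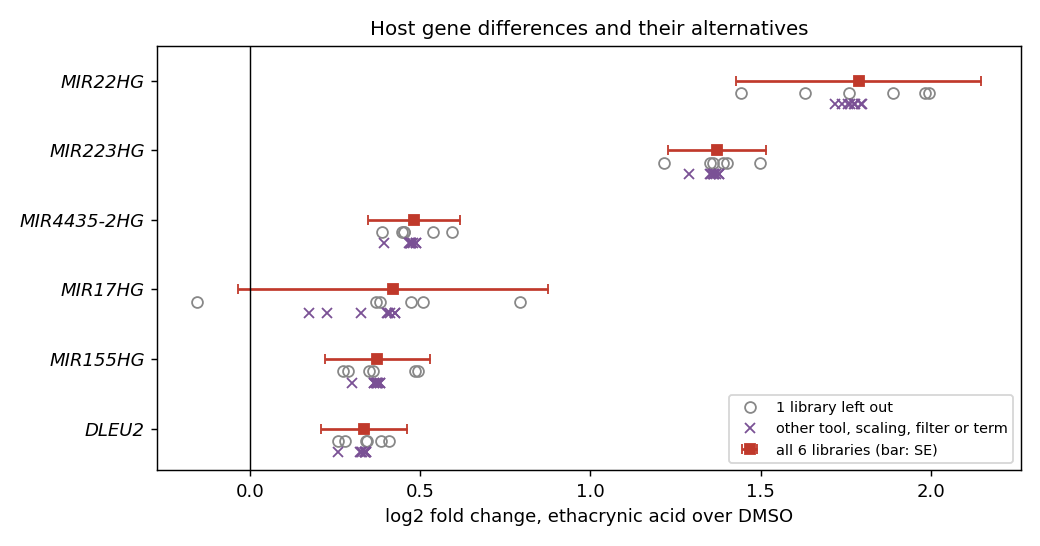
Log2 fold change of each host transcript, ethacrynic acid over DMSO (linear axis): red squares with SE bars from all 6 libraries, open circles with 1 library left out, and crosses under another tool, scaling, filter or model term. All values of 5 transcripts lie to the right of 0, and MIR17HG has 1 value at -0.16.

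Some of these transcripts share sequence or position with other genes, which bears on how their reads could be divided. MIR4435-2HG has a near-identical partner on the same chromosome, CYTOR (ENSG00000222041, chr2:87454781-87636740, plus strand), another long RNA, which carries a second copy of the hairpin. The 2 hairpins are shown because they have a run of 74 bases in common, the whole of the MIR4435-2 hairpin (chr2:111321013-111321086, minus strand, against chr2:87629755-87629834, plus strand, for MIR4435-1; RefSeq, GRCh38.p14; the mature strand is in capitals).
MIR4435-2: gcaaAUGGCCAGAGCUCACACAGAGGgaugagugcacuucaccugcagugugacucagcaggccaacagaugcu
MIR4435-1: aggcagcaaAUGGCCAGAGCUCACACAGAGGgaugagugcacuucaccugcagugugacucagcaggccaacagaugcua
CYTOR had 12.8, 12.3 and 11.1 CPM in ethacrynic acid replicates 1, 2 and 3, against 8.71, 9.92 and 10.0 CPM in DMSO replicates 1, 2 and 3. It was higher in each ethacrynic acid library and was not called (log2 fold change 0.34 ± 0.13 (SE), edgeR adjusted p = 0.425). Reads that fit both copies may have been given to either, so the level of each is uncertain, but their sum does not depend on that division as long as such reads were counted once. The sum was 52.2 ± 7.20 CPM with ethacrynic acid and 38.3 ± 1.18 CPM with DMSO (SD, n = 3 each), 1.36-fold apart. It spanned 44.3 to 58.4 CPM in ethacrynic acid libraries and 37.5 to 39.7 CPM in DMSO libraries. The sum may still depend on reads shared with other genes on the same strand. CYTOR shares 436 exon bases with NCAL1, which had 11.5 ± 1.35 CPM with ethacrynic acid and 12.2 ± 2.34 CPM with DMSO (SD, n = 3 each). MIR4435-2HG shares 297 with a gene without a symbol, at 0.271 CPM with ethacrynic acid and 0.189 CPM with DMSO.

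The strand setting of the counting is not given in the sources used here, so reads of antisense neighbours could not be told apart from those of the hosts. Exons of MIR4435-2HG share 727 bases with BCL2L11 on the opposite strand, the gene that the mouse counterpart represses. BCL2L11 had 40.7 ± 2.47 CPM with ethacrynic acid and 40.6 ± 3.08 CPM with DMSO (SD, n = 3 each), and its log2 fold change was 0.00 ± 0.10 (SE) with an edgeR adjusted p of 0.993. Exons of DLEU2 share 346 bases with TRIM13 on the opposite strand, a ubiquitin ligase gene, which had 42.8 ± 4.12 CPM with ethacrynic acid and 38.7 ± 3.03 CPM with DMSO (SD, n = 3 each; adjusted p = 0.649). DLEU1, which runs opposite to DLEU2 with no shared exon bases, showed a log2 difference of 0.24 ± 0.10 (SE; adjusted p = 0.425). WDR81, a gene of endosome and autophagy function that lies opposite MIR22HG with no shared exon bases, had 40.7 ± 5.14 CPM with ethacrynic acid and 28.9 ± 2.93 CPM with DMSO (SD, n = 3 each), without overlap. Its log2 fold change was 0.50 ± 0.13 (SE), with an adjusted p of 0.245 in edgeR and 0.021 in DESeq2.

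The nearest protein-coding genes on either side of the hosts were also examined. MSN, which encodes the cytoskeletal linker moesin and lies 273529 bases from MIR223HG, had a log2 fold change of 0.37 ± 0.09 (SE) with an adjusted p of 0.218 in edgeR and 0.00269 in DESeq2. VSIG4, a macrophage complement receptor only 1315 bases from MIR223HG, was barely detected, at 0.39 ± 0.287 CPM with ethacrynic acid and 0.201 ± 0.175 CPM with DMSO (SD, n = 3 each; adjusted p = 0.767). MRPL39, a mitochondrial ribosomal gene next to MIR155HG, showed a log2 difference of -0.17 ± 0.14 (SE; adjusted p = 0.660). BUB1 and ANAPC1, cell division genes on either side of MIR4435-2HG, had log2 fold changes of -0.06 ± 0.12 and -0.14 ± 0.10 (SE), with edgeR adjusted p-values of 0.890 and 0.629. SPRYD7 and DLEU7, next to DLEU2, had log2 fold changes of -0.05 ± 0.11 and 0.12 ± 0.17 (SE; adjusted p = 0.902 and 0.822). TLCD2, a membrane protein gene 1054 bases from MIR22HG, had 0.131, 0.516 and 2.19 CPM in ethacrynic acid replicates 1, 2 and 3, against 0.118, 0.275 and 0.251 CPM in DMSO replicates 1, 2 and 3 (adjusted p = 0.448). Its high value fell in ethacrynic acid replicate 3, not in replicate 2, where MIR22HG was highest. Around MIR17HG, GPC5 had 0 counts in each library and SLITRK5 at most 4.

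RefSeq promoter windows, 250 bases before to 50 after a start (GRCh38.p14), exist in the table used for 5 of the 6 members, not for MIR223HG. The windows of MIR155HG, MIR4435-2HG and DLEU2 (1 of its 2) are shown, 5′ to 3′ on the strand of the gene, because they hold a match to an AP-1, PU.1 or E-box motif, whose factor families are described below. Capitals mark every match, on either strand, to 9 motifs: E-box (CACGTG), AP-1 (TGANTCA), CRE (TGACGTCA), the antioxidant response element core (TGACNNNGC), NF-kB, C/EBP (TTGCNNAAT), PU.1 (GAGGAAGT), E2F (TTTGGCGC) and the CCAAT box (CCAAT).
MIR155HG (chr21:25561895-25562194, plus strand): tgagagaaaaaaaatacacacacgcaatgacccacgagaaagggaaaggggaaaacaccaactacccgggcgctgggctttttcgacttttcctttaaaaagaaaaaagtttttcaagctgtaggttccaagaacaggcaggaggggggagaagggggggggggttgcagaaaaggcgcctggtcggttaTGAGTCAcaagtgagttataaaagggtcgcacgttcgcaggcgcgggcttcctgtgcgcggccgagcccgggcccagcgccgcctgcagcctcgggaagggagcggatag
MIR4435-2HG (chr2:111495112-111495411, minus strand): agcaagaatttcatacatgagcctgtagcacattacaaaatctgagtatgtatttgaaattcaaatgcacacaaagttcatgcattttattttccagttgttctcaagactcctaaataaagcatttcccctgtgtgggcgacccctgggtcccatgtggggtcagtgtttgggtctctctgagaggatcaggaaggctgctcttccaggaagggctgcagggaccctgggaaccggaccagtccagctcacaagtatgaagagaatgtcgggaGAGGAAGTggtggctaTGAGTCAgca
DLEU2 (chr13:50125492-50125791, minus strand): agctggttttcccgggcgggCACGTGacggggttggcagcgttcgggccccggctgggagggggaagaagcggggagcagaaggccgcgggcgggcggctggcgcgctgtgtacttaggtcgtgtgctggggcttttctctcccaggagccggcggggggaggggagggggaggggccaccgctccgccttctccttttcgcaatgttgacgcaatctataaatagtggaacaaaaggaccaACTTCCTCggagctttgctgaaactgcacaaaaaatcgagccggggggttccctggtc
The MIR155HG window holds 1 AP-1 match that starts 60 bases before the start, the MIR4435-2HG window a PU.1 and an AP-1 match after the start, and the DLEU2 window an E-box and a PU.1 match before the start. The CYTOR window repeats 241 bases of the MIR4435-2HG window in 1 run, that PU.1 and AP-1 match included, and holds a second AP-1 match. Of the windows not shown, that of MIR22HG holds a CCAAT box on each strand, that of MIR17HG 1 CCAAT box, and the other DLEU2 window no match. Of all 35116 promoter windows of this length, 34.6% hold a CCAAT box, 7.71% an AP-1 match, 7.26% an E-box, 2.59% a PU.1 match, 13.3% the antioxidant response element core, 2.66% a C/EBP match, 1.85% a CRE, 0.652% an E2F match and 0.558% an NF-kB match. The windows of MIR17HG and MIR22HG are rich in G and C (73.0% and 72.3%), and that of MIR4435-2HG is poorer (47.7%), against a median of 58.7% over all windows.

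Factors reported to act on these hosts were taken as a list of 30, of which 28 passed the filter. None was called by edgeR, and 8 had an unadjusted p under 0.05 (11.1% of all genes tested did). DESeq2 called 5, all of them higher (2.05% of all genes tested were), and limma-voom called 0. Positive log2 fold changes were seen in 21 of the 28, with a median of 0.27, and 8 were higher without overlap while 0 were lower without overlap (over all genes, 8.64% were higher and 8.99% lower in this way). MYC, the activator of MIR17HG, had 308, 357 and 368 CPM in ethacrynic acid replicates 1, 2 and 3, against 200, 256 and 266 CPM in DMSO replicates 1, 2 and 3, with a log2 fold change of 0.52 ± 0.13 (SE) and adjusted p-values of 0.218 in edgeR and 0.00821 in DESeq2. MYC was thus higher in every ethacrynic acid library than in any DMSO library, and its part in the level of MIR17HG was not tested.

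The myeloid activators of miR-223 had smaller log2 fold changes than its host. CEBPA had 399 ± 70.2 CPM with ethacrynic acid and 325 ± 20.5 CPM with DMSO (SD, n = 3 each; log2 fold change 0.30 ± 0.14 (SE), edgeR adjusted p = 0.468). SPI1, the gene of PU.1, differed by 0.37 ± 0.20 on the log2 scale (SE; adjusted p = 0.521), and its groups overlapped. Neither CEBPA nor SPI1 was called. The other C/EBP genes of the list that passed the filter were CEBPB and CEBPE, the latter named after its values were seen. CEBPB had a log2 fold change of 0.30 ± 0.09 (SE) without overlap, and CEBPE 0.27 ± 0.19 (SE) with overlap. Adjusted p-values were 0.298 in edgeR and 0.0297 in DESeq2 for CEBPB, and 0.619 and 0.572 for CEBPE. The difference between any of these changes and that of MIR223HG was not tested. Of the AP-1 and NF-kB genes behind MIR155HG induction, JUND differed by 0.57 ± 0.19 on the log2 scale (SE; adjusted p = 0.357) and RELA by 0.16 ± 0.10 (SE; adjusted p = 0.588). FOS had 9.15 ± 5.62 CPM with ethacrynic acid and 5.83 ± 1.6 CPM with DMSO (SD, n = 3 each), with 15.6 CPM in ethacrynic acid replicate 3. JUN and FOSL2, named after their values were seen because DESeq2 called them, had log2 fold changes of 0.44 ± 0.10 and 0.46 ± 0.13 (SE) and edgeR adjusted p-values of 0.190 and 0.276.

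No gene of microRNA processing or silencing was called by any of the 3 tools run. Of the 38 listed, 36 passed the filter, and edgeR, limma-voom and DESeq2 each called 0. An unadjusted p under 0.05 was found for 2 (11.1% of all genes tested). Without overlap 1 was higher and 4 were lower (8.64% and 8.99% over all genes tested). As many had a positive as a negative log2 fold change (18 each), with a median of -0.00. DROSHA, the nuclear hairpin nuclease, had 68.6 ± 4.43 CPM with ethacrynic acid and 68.0 ± 2.46 CPM with DMSO (SD, n = 3 each), and DICER1 had 42.9 ± 11.5 CPM with ethacrynic acid and 45.1 ± 7.35 CPM with DMSO. Log2 fold changes were 0.01 ± 0.09 for DROSHA, 0.19 ± 0.13 for its partner DGCR8, -0.02 ± 0.11 for the exporter XPO5, -0.07 ± 0.21 for DICER1 and -0.13 ± 0.17 for AGO2 (SE). Those of DROSHA, XPO5, DICER1 and AGO2 changed sign when 1 library or another was left out. The largest changes in the list among genes of at least 5 CPM were those of TNRC6C, a silencing scaffold, at -0.44 ± 0.24, of the chaperone FKBP4 at 0.42 ± 0.13, of the chaperone HSP90AA1, which helps to load Argonaute, at 0.36 ± 0.14, and of TUT4, which adds uridines to precursor hairpins, at -0.29 ± 0.15 (SE), none of them called.

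Other hosts of microRNAs were compared through 116 genes in the table, of which 59 passed the filter. Their median log2 fold change was 0.01, with 31 positive and 28 negative. Without overlap 6 were higher and 5 lower (8.64% and 8.99% over all genes tested). edgeR called 1, VMP1, and DESeq2 called 4 (0.265% and 3.13% over all genes tested). VMP1, an autophagy gene whose transcripts run into the miR-21 hairpin, rose to 86.8, 94.4 and 104 CPM in ethacrynic acid replicates 1, 2 and 3, against 43.2, 46.0 and 41.0 CPM in DMSO replicates 1, 2 and 3. The 2.19-fold difference was a log2 fold change of 1.13 ± 0.10 (SE), with an edgeR adjusted p of 0.00984, and it was higher in 3 of 3 ethacrynic acid libraries. With 1 library left out its log2 fold change was 1.06 to 1.20, and the adjusted p was 0.109, 0.0818 and 0.108 without DMSO replicates 1, 2 and 3 and 0.0632 without ethacrynic acid replicate 2, so the call ended there. It held without ethacrynic acid replicate 1 (0.0034) or 3 (0.00519). Named after their values were seen, because DESeq2 called them, are MIR142HG, host of the blood-cell miR-142, MIR222HG, host of miR-221 and miR-222, and SMC4, a condensin gene that carries miR-15b and miR-16-2. MIR142HG had 26.4 ± 5.88 CPM with ethacrynic acid and 16.5 ± 1.01 CPM with DMSO (SD, n = 3 each), with adjusted p-values of 0.208 in edgeR and 0.00744 in DESeq2. MIR222HG had 6.10 ± 1.11 CPM with ethacrynic acid and 3.04 ± 0.764 CPM with DMSO (SD, n = 3 each), with adjusted p-values of 0.220 in edgeR and 0.00822 in DESeq2. SMC4 was the lower one, at 213 ± 40.0 CPM with ethacrynic acid and 321 ± 37.9 CPM with DMSO (SD, n = 3 each; adjusted p = 0.250 in edgeR and 0.0149 in DESeq2). The hosts of miR-16-1, DLEU2, and of miR-16-2, SMC4, thus lay on opposite sides of 0, although both yield the same mature miR-16-5p.

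**Figure D3:**
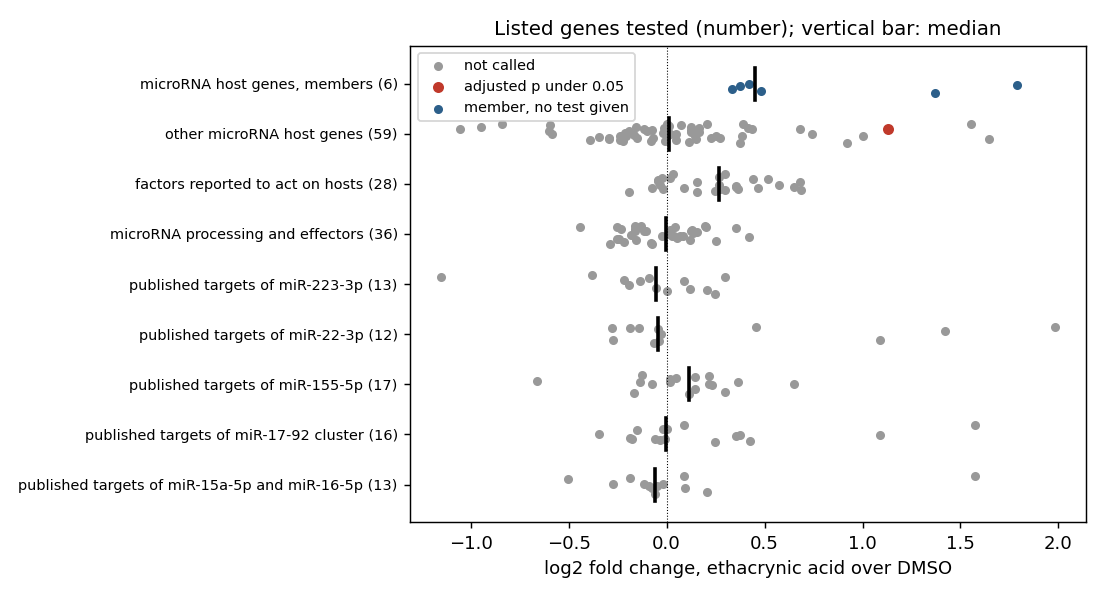
Log2 fold change, ethacrynic acid over DMSO (linear axis), of every tested gene in 9 lists, whose sizes stand in parentheses. Vertical bars are list medians, and blue points are the 6 host transcripts, shown with no test. The red point is VMP1, the 1 gene of these lists outside the members with an edgeR adjusted p under 0.05. The host transcripts and the list of factors have medians of 0.45 and 0.27, and the medians of the other lists lie between -0.06 and 0.11.

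Published targets of the encoded microRNAs were followed as messenger RNAs, since a microRNA can lower the level of its targets. Mature microRNAs were not measured, and their part in the levels of targets was not tested. Over the lists there were 64 genes, and all 64 passed the filter. edgeR and limma-voom called 0 of them and DESeq2 called 4, with 2 higher and 2 lower, while 9 had an unadjusted p under 0.05 (over all genes tested, 3.13% were called by DESeq2 and 11.1% had such a p). Negative log2 fold changes were seen in 34 and positive ones in 30, with a median of -0.02, and 8 were lower and 3 higher without overlap (8.99% and 8.64% over all genes tested).

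The clearest difference among the 13 targets of miR-223-3p (median log2 fold change -0.05) was in MEF2C, a transcription factor of myeloid progenitors. It had 2.41, 3.29 and 4.04 CPM in ethacrynic acid replicates 1, 2 and 3, against 6.47, 7.57 and 7.59 CPM in DMSO replicates 1, 2 and 3, all lower without overlap. The log2 fold change was -1.15 ± 0.23 (SE), with adjusted p-values of 0.142 in edgeR and 0.000265 in DESeq2. With 1 library left out the edgeR adjusted p was 0.0403 to 0.643, lowest without ethacrynic acid replicate 3. Its 3′ UTR (transcript MEF2C-209, chromosome 5) holds a match to the whole seed of miR-223-3p followed by A, an 8mer, at bases 1237 to 1244, shown in capitals.
MEF2C: caatctattgggtcAACTGACA
Such a match, or one without the final A, was found in 11 of the 13 genes. Of these 11, 7 had a negative log2 fold change, while 51.6% of all tested genes with a 3′ UTR had a positive one. The share of all genes that hold such a match is not given here. In CEBPB, a target of both miR-223 and miR-155 in the lists and itself an activator of myeloid genes, the level was 114 ± 5.14 CPM with ethacrynic acid and 93.0 ± 5.09 CPM with DMSO (SD, n = 3 each; edgeR adjusted p = 0.298, DESeq2 adjusted p = 0.0297). The membrane skeleton gene EPB41L3 had a log2 fold change of -0.38 ± 0.19 and the cell cycle factor E2F1 one of 0.25 ± 0.18 (SE), neither of them called.

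Among the 17 targets of miR-155-5p (median 0.11, 12 positive), MEIS1, a homeobox factor of leukaemic self-renewal, had 64.8, 65.3 and 73.4 CPM in ethacrynic acid replicates 1, 2 and 3, against 99.7, 102 and 120 CPM in DMSO replicates 1, 2 and 3. All ethacrynic acid libraries were below all DMSO libraries. The log2 fold change was -0.66 ± 0.11 (SE), with adjusted p-values of 0.0724 in edgeR and 4.58e-06 in DESeq2. In edgeR it was 0.0389 with a stricter filter on low counts. With 1 library left out it was 0.037 to 0.351, lowest without ethacrynic acid replicate 3. Both MEIS1 (3′ UTR bases 3157 to 3164, chromosome 2) and CEBPB (bases 554 to 561, chromosome 20) hold an 8mer for the miR-155-5p seed, in capitals, and their log2 fold changes had opposite signs.
MEIS1: tgcaggatttttagAGCATTAA
CEBPB: tcttttccgtttcaAGCATTAA

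The lists of miR-22-3p (12 genes, median -0.04) and of miR-17-92 (16 genes, median -0.00) share CDKN1A, the cell cycle inhibitor p21. It had 26.2, 17.5 and 22 CPM in ethacrynic acid replicates 1, 2 and 3, against 11.9, 9.46 and 9.64 CPM in DMSO replicates 1, 2 and 3. The groups did not overlap, and the log2 fold change was 1.09 ± 0.18 (SE). Its adjusted p-values were 0.0764 in edgeR, 0.0359 in edgeR with a stricter filter and 2.85e-06 in DESeq2. With 1 library left out the edgeR adjusted p was 0.0564 to 0.426. Its 3′ UTR on chromosome 6 holds a 7-base seed match for miR-22-3p at bases 951 to 957, shown. Matches for miR-17-5p lie at bases 468 to 474, shown, and 1148 to 1154. The part of these sites in its level was not tested.
CDKN1A (miR-22-3p): cctagttctacctcaGGCAGCT
CDKN1A (miR-17-5p): agaagtaaacagatgGCACTTT
Of the remaining targets of these lists, the nuclear protein gene PTMS had a log2 fold change of 0.45 ± 0.18, the deacetylase SIRT1 -0.28 ± 0.14, the NF-kB inhibitor TNFAIP3 0.43 ± 0.15, E2F2 0.36 ± 0.19 and the phosphatase PHLPP1 -0.34 ± 0.12 (SE), none of them called. Of the 13 targets of miR-15a-5p and miR-16-5p (median -0.06, 9 negative), the polycomb gene BMI1 had 310 ± 69.7 CPM with ethacrynic acid and 439 ± 54.6 CPM with DMSO (SD, n = 3 each; edgeR adjusted p = 0.372). The cell cycle genes CDK6, CCND3 and WEE1 had log2 fold changes of -0.27 ± 0.13, 0.21 ± 0.17 and -0.19 ± 0.13 (SE).

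Beyond published targets, the same question was put to every tested gene with an annotated 3′ UTR, 13897 in number, by sorting them on the presence of an 8mer for each seed. Genes with an 8mer for miR-223-3p (541 genes) had a median log2 fold change of -0.07 with 39.4% positive, and those for miR-155-5p (613 genes) had -0.07 with 38.7% positive, against 0.01 and 51.6% over all 13897. The medians for miR-92a-3p (486 genes), miR-19b-3p (957 genes) and miR-15a-5p (700 genes) were -0.04, -0.03 and -0.03. Those for miR-22-3p (376 genes), whose host had the largest fold change, miR-18a-5p (249 genes), miR-17-5p (741 genes) and miR-4435 (1650 genes) were -0.02, -0.02, -0.01 and -0.01. The SD of these medians between the 3 ethacrynic acid libraries was 0.03 to 0.13. Each of the 9 differences from all genes is smaller than the SD of its own median, that of miR-22-3p just so. This SD may include shifts that a library's genes share, so it is not the error of the difference. Whether any set differs from all genes was not tested.

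Every seed set had a lower median among UTRs over 2000 bases than among shorter ones. Between the sets, median UTR length and median log2 fold change did not follow the same order. Genes with a miR-223-3p 8mer had a median 3′ UTR of 3480 bases, against 1554 bases over all genes with a UTR. Genes with UTRs over 2000 bases had a median log2 fold change of -0.04 as a whole (5527 genes), and those with shorter UTRs 0.05 (8370 genes). Within the longer class the median was -0.09 both for miR-223-3p (406 genes) and for miR-155-5p (481 genes), and within the shorter class it was -0.00 for miR-223-3p (135 genes) and 0.01 for miR-155-5p (132 genes). Without ethacrynic acid replicate 1 the medians over all UTR lengths were -0.01 for miR-223-3p and 0.00 for miR-155-5p, and without ethacrynic acid replicate 3 both were -0.13. The part of UTR length in the medians was not tested further.

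**Figure D4:**
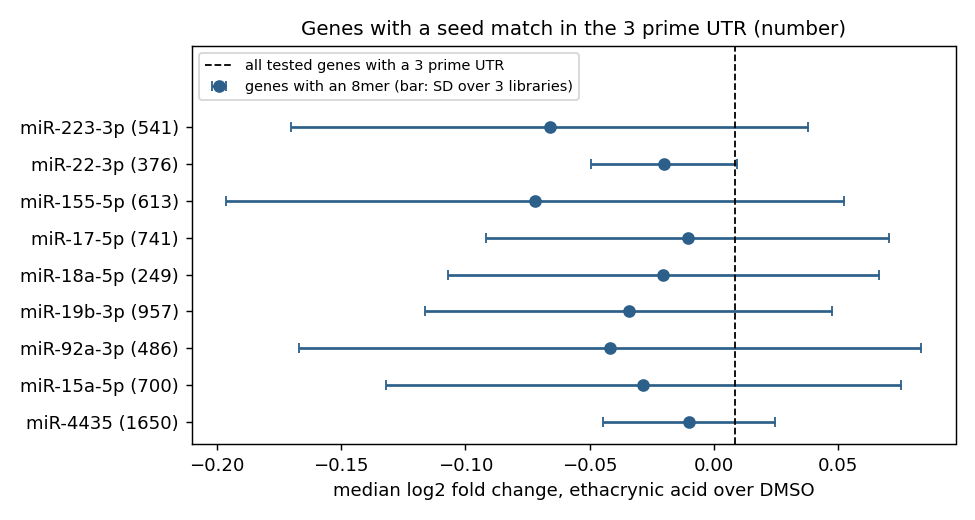
Median log2 fold change, ethacrynic acid over DMSO (linear axis), of genes with an 8mer match in the 3′ UTR for each seed examined. Numbers of genes are in parentheses. Bars are the SD of that median between the 3 ethacrynic acid libraries. The dashed line is the median of all 13897 tested genes with a 3′ UTR. Points lie between -0.07 and -0.01, and all 9 bars reach the dashed line. The bars are not the error of a point's distance from that line.

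The genes whose levels followed each host most closely over the 6 libraries were ranked by Pearson r of log2 CPM among 11126 or 11127 tested genes of at least 5 CPM. With so few libraries, in 2 groups, many genes reach a high r, and these are a description. MIR223HG was most like ST13, a HSP70 cochaperone (r = 0.9938), TRGC1 (0.9905) and DYSF, a membrane repair gene of monocytes and muscle (0.9891), and least like SNX4 (-0.9974). MIR4435-2HG was most like SPSB1 (0.9986), EPHX1, an epoxide hydrolase (0.9937), and ATG5, an autophagy gene (0.9935), and least like MED14 (-0.9961). MIR22HG was closest to NSUN2 (0.9924) and MORF4L2 (0.9894), with TMEM229B at the other end (-0.998). MIR155HG was closest to the stress granule gene G3BP1 (0.9858), NIPA2 (0.9856) and DFFA (0.9843), with HOTAIRM1, a long RNA of the HOXA cluster, at the other end (-0.9927). MIR17HG was closest to CYB561D1 (0.9977), NLRC5 (0.9733) and HSBP1L1 (0.9732), with PCID2 at the other end (-0.9859). DLEU2 was closest to the cyclophilin gene PPID (0.9973), the oxysterol receptor gene GPR183 (0.9936) and VPS9D1-AS1 (0.9904), with IFT74 at the other end (-0.9947). The members shared none of these nearest genes.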

How the data were processed

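The deposited table holds raw counts per Ensembl gene for 3 ethacrynic acid and 3 DMSO libraries of U937 cells, whole numbers that the authors did not scale. Per the labels' protocols, RNA was taken with TRIzol and a SMARTER mRNA-seq kit was used for the libraries. Per the submitters' processing notes, GRCh38 and the tools HISAT2, StringTie 1.3.4d, fastp and edgeR were used, without their roles or order. Which annotation, strand setting and counting method were used is not given in the sources used here.

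Table columns were assigned through the treatment and replicate in their names. Of 61806 IDs, 61757 had a symbol and 58254 were in GENCODE 29, the source of coordinates, exon lengths and 3′ UTRs. Sequences came from RefSeq tables (GRCh38.p14) and, for target sites, from GENCODE 29 transcripts; the longest UTR of each gene was searched. After filterByExpr (minimum count 10, minimum total 15) and TMM scaling, edgeR 4.0.16 (R 4.3.3) fitted a quasi-likelihood model and tested it by F, with the group as the only term and Benjamini-Hochberg adjustment over the 19611 genes. Called means an adjusted p under 0.05. The SE of a log2 fold change is its size divided by the square root of F. Log2 CPM for likeness used a prior count of 2. The common dispersion was 0.0845. Libraries held 57516146 to 68128543 counts.

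Alternatives were scaling by RLE, by upper quartile and by total count, no filter, a stricter one (5 CPM in 3 libraries), limma-voom (limma 3.58.1), DESeq2 1.42.0, the replicate number as a term, counts divided by 4 and each library left out in turn. For seed sites they were 7-base matches and UTRs up to 2000 bases. On data simulated from these libraries (18822 genes) calls were made for 20.0% of the 80 genes given a 1.5-fold change, 65.5% of the 55 given 2-fold and 100% of the 65 given 4-fold, and for 9 unchanged genes. The changed genes were drawn from those with a DMSO mean of at least 5 CPM. The rates therefore do not cover genes of lower level, such as MIR22HG and MIR17HG.

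The members, lists and tests were chosen with earlier results of these data known. Besides the 6 members, the genes named are those of each list that were called (up to 6) or else up to 4 with the largest change and a mean of at least 5 CPM, a panel of DROSHA, DGCR8, XPO5, DICER1, AGO2, CEBPA, SPI1, MYC and RELA, the 3 genes most and the 1 least like each member, CYTOR, and overlapping or adjacent genes. Others are said to be named after their values were seen. Some genes that this rule or the lists include are left out of the text and remain in the counts.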

Additional observations from a re-analysis of the deposited data

How the results depend on the processing

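The log2 fold changes of MIR223HG, MIR22HG, MIR155HG, MIR4435-2HG and DLEU2 were positive under each alternative run for them (15 settings, 14 for MIR22HG, which the stricter filter removes along with MIR17HG). MIR223HG had 1.36 with no filter and 1.21 to 1.5 with 1 library left out, and DESeq2 gave 1.80 for MIR22HG and 0.49 for MIR4435-2HG. MIR17HG was -0.16 without ethacrynic acid replicate 2 and ranged up to 0.79.

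Genes called numbered 52 in all, 14 with no filter, 96 with the stricter filter, 614 in DESeq2 and 4 to 148 with 1 library left out. Members called were 0 with no filter, 3 in DESeq2 and 0 to 1 with 1 library left out, the 0 being without any 1 DMSO library or without ethacrynic acid replicate 2. Other hosts called were 4 in DESeq2 and 0 to 1 with 1 library left out. Published targets called were 2 with the stricter filter, 4 in DESeq2 and 0 to 2 with 1 library left out, the 2 being without ethacrynic acid replicate 3. Factors acting on hosts called were 1 with the stricter filter and 5 in DESeq2. With 1 library left out, DROSHA ranged from -0.041 to 0.065 (-0.063 with total count scaling), XPO5 from -0.091 to 0.049, DICER1 from -0.22 to 0.14 and AGO2 from -0.23 to 0.046. The seed median of miR-22-3p was 0.041 in UTRs up to 2000 bases and -0.053 to 0.008 with 1 library left out, and that of miR-4435 was 0.046 and -0.0445 to 0.0141 under the same settings. With 1 library left out the other seed medians ranged from -0.133 to -0.0145 (miR-223-3p), -0.126 to 0.0024 (miR-155-5p), -0.054 to 0.0392 (miR-17-5p), -0.0862 to 0.0267 (miR-18a-5p), -0.0997 to 0.0108 (miR-19b-3p), -0.101 to 0.0272 (miR-92a-3p) and -0.0917 to 0.0209 (miR-15a-5p). The cause of these shifts was not tested.

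Replicate numbers are shared by the groups, but same-numbered libraries deviated together weakly (correlations of 0.161, 0.0585 and 0.0868), so the numbers were not taken as a pairing. With the replicate block 355 genes were called, among them 1 member, 2 other hosts, 1 processing gene (FKBP4), 5 published targets (MEF2C, CDKN1A, PTMS, MEIS1 and BMI1, which the report gives as not called) and 3 factors, MYC and JUND among them.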
